A study of Mus musculus with 3 samples.

Results

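Inflammasome genes were followed across 3 arrays of BMDMs, which are macrophages grown from mouse bone marrow. The genes were the sensors Nlrp3, Aim2, Nlrc4, Naip5, and Mefv, the adaptor Pycard, the caspases Casp1 and Casp4, and the pore protein Gsdmd. They were chosen by name, with earlier results of these data known. A probe belonged to a gene if the array design gave it that gene name and it was not a control. All 9 were on the array, with 12 probes at 21 spots, among 34813 gene names measured on all 3 arrays.

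An inflammasome is a protein platform that a macrophage builds in its cytosol when a sensor detects a microbe or damage. The sensor gathers the adaptor ASC, encoded by Pycard, and ASC gathers caspase-1, which cuts the precursors of IL-1β and IL-18. Caspase-1 and caspase-11, which the mouse gene Casp4 encodes, also cut gasdermin D, whose freed end opens pores in the cell membrane and kills the cell by pyroptosis. In macrophages, transcription of some of these genes is known to be raised by ligands of Toll-like receptors or by interferons, a step called priming that precedes activation of the proteins. The arrays measured RNA, and neither activation nor cutting of these proteins was measured.

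The BMDMs came from C57BL/6J mice and were grown with medium of L929 cells as the source of M-CSF, which all 3 conditions share. They were stimulated for 20 h with CpG, with IFN-γ + αIL-10R, or with all of these agents, a condition called Triple. CpG is DNA that activates TLR9, IFN-γ is the interferon of T and NK cells, and αIL-10R is an antibody against the receptor of the inhibitory cytokine IL-10, which the labels write as IL-10RB. The study asked which genes accompany the uptake of live cells by BMDMs in Triple, and it used IFN-γ + αIL-10R as the reference, so that each array compared here was stimulated and no unstimulated array was analysed here. Its methods give a lower dose of CpG for the arrays than for the assays of uptake. IFN-γ and αIL-10R were given together in both arrays that hold them, so that their effects cannot be told apart.

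Each condition had 1 array, so that no difference has a replicate check and no test between conditions was possible. Values are the processed signal of the scanner software, an intensity after background subtraction, and folds were taken after each array was divided by its own 75th percentile signal. The scanner software marked between 44.4% and 46.0% of an array's spots as well above background and none as saturated. Each of the 9 inflammasome genes passed that mark on all 3 arrays, and none of their 21 spots was marked as a feature outlier on any array. The SD between spots of the same probe was 0.089 log2 on the CpG array, 0.084 on the IFN-γ + αIL-10R array, and 0.099 on the Triple array over 237 probes. For a log2 fold between 2 arrays this technical SD was 0.13 in both comparisons that hold Triple and 0.12 in the comparison that does not. It comes from repeat spots within each array, pooled over these probes whatever their brightness. It does not hold differences between hybridizations or between cultures, which were not measured. Of 6 macrophage markers, 6 were well above background on each array, with summed signals of 709696 on the CpG array, 562914 on the IFN-γ + αIL-10R array, and 538902 on the Triple array. The markers did not move together. In the same order of arrays, Cd14 had signals of 55389, 5534, and 90961, while Cd68 had 153505, 190933, and 83203. RNA came from whole cultures, in which fewer cells that express a gene and less RNA per cell cannot be told apart.

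The following 30-base stretches of the probes show what was hybridized for each gene, and all coordinates of probes are those of mm9 in the array annotation. They were taken from within the 60 bases of each probe, and whether they lie in coding or untranslated sequence was not analysed here. The capitals in Naip5 mark 20 bases that also occur in 2 probes of other gene names and in the promoter windows of 17 genes, and no other stretch has capitals.
Nlrp3 (chr11:59379996-59380025, plus strand): aaggtgttccctcttggtgacttcatggaa
Aim2 (chr1:175396051-175396080, plus strand): tattggggtatgtgatgtgaaattccctag
Nlrc4 (chr17:74826187-74826216, minus strand): ctattaaaggcacctttaaactagtgactg
Naip5 (chr13:100981854-100981883, minus strand): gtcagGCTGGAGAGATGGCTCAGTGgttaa
Mefv (chr16:3707289-3707318, minus strand): ctcttgactgtggtccaggctccatacaaa
Pycard (chr7:135136256-135136285, minus strand): ctcctccaggccttgaaggaaatacatccc
Casp1 (chr9:5307221-5307250, plus strand): tgccaataagaagccaatacttccttagat
Casp4 (chr9:5336673-5336702, plus strand): cagtgggattctgttccatagacaagcaaa
Gsdmd (chr15:75697551-75697580, plus strand): gcctaaggctgcaggtagaatccccccagg

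These sequences set Naip5 apart from the other genes. The Naip5 probe shared a run of 20 bases, on either strand, with 4 probes of other gene names and with promoter windows of 37 of 27025 genes in a RefSeq table. No probe of the other 8 genes shared such a run with a probe of another name. The shared bases resemble the B2 short interspersed repeat of the mouse, which is spread through many transcripts. The part of other transcripts in the Naip5 signal was not tested, and its values are given with that limit.

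Nlrp3, Mefv, and Casp4 had 2 probes each, of which the brighter was used. The Casp4 probes, at chr9:5336658-5336717 and chr9:5336663-5336722, overlap by 55 bases and are nearly the same measurement. The Mefv probes at chr16:3707274-3707333 and chr16:3707975-3708034 and the Nlrp3 probes at chr11:59379981-59380040 and chr11:59378554-59378613 do not overlap, so that they measure different stretches of the transcript.

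Mefv, which encodes pyrin, the sensor of bacterial toxins that switch off RhoA, had the largest difference of the 9 genes. Its signal was 3138 on the CpG array, 476 on the IFN-γ + αIL-10R array, and 9854 on the Triple array. Both arrays with CpG were thus above the array without it, and Triple was the highest. Mefv was 21.2-fold higher in Triple than in IFN-γ + αIL-10R, 6.50-fold higher in CpG than in IFN-γ + αIL-10R, and 3.27-fold higher in Triple than in CpG. The other Mefv probe had signals of 460, 76.2, and 1356 in the same order of arrays, and its log2 folds were 4.19, 2.57, and 1.62 where those of the used probe were 4.41, 2.70, and 1.71. The spot of the used probe had a local background marked as an outlier in Triple. That local background was not the one subtracted, which came from a surface fitted over the array at all 59305 spots.

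Nlrp3, the sensor of ion efflux and membrane damage, had its highest signal in Triple and its lowest in CpG. Its signal was 111 on the CpG array, 298 on the IFN-γ + αIL-10R array, and 658 on the Triple array. The array with IFN-γ + αIL-10R alone was thus above the array with CpG alone, the opposite of the order for Mefv. Nlrp3 was 6.15-fold higher in Triple than in CpG, 2.26-fold higher in Triple than in IFN-γ + αIL-10R, and 2.72-fold lower in CpG than in IFN-γ + αIL-10R. The second Nlrp3 probe, with signals of 44.4, 101, and 221, had the same order, with log2 folds of 2.37, 1.17, and -1.20 against 2.62, 1.18, and -1.44 for the used probe. With another background correction (normexp), the log2 fold of Triple over IFN-γ + αIL-10R was 0.98, just inside 2-fold, and that of Triple over CpG was 2.01. The log2 fold of CpG over IFN-γ + αIL-10R was then -1.03, just past 2-fold.

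Aim2, the sensor of double-stranded DNA in the cytosol, was highest in IFN-γ + αIL-10R. Its signal was 237 on the CpG array, 643 on the IFN-γ + αIL-10R array, and 215 on the Triple array. Both arrays with CpG were lower than the array without it, although Triple also held IFN-γ + αIL-10R. Aim2 was 2.92-fold lower in Triple and 2.75-fold lower in CpG, both against IFN-γ + αIL-10R. The log2 difference between Triple and CpG, -0.09, was under 2 technical SD, so that the order of those 2 arrays is not resolved. Aim2 rests on 1 spot in the last of the array's 384 rows, and its local background was marked as an outlier on all 3 arrays, although the fitted surface was what was subtracted. Without spots so marked, Aim2 has no value.

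Nlrc4 and Naip5 act together, with NAIP5 binding bacterial flagellin and NLRC4 forming the platform. The Nlrc4 signal was 433 on the CpG array, 679 on the IFN-γ + αIL-10R array, and 748 on the Triple array, and the Naip5 signal was 27847, 37343, and 34145. Neither was past 2-fold in any of the 3 comparisons. CpG was the lowest array for both. The widest log2 fold of Nlrc4 was 0.85, for Triple over CpG, and that of Naip5 was -0.44, for CpG over IFN-γ + αIL-10R. Triple and IFN-γ + αIL-10R were within 2 technical SD of each other for both genes, at log2 folds of 0.18 and -0.09. The 4 probes that share sequence with the Naip5 probe had log2 folds of CpG over IFN-γ + αIL-10R from -0.82 to 0.40, a range that includes that of Naip5. For Triple over IFN-γ + αIL-10R their range, from -0.89 to 0.03, also included it. For Triple over CpG their range was from -0.38 to 0.19, and Naip5 was above it at 0.35.

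Pycard, the adaptor that joins the sensors to caspase-1, differed little. Its signal was 48213 on the CpG array, 48208 on the IFN-γ + αIL-10R array, and 32825 on the Triple array. The first 2 arrays were level, at a log2 fold of -0.02, and Triple was lower than both. The log2 fold of Triple was -0.52 over IFN-γ + αIL-10R and -0.50 over CpG, past 2 technical SD and inside 2-fold. Pycard was the only one of the 9 genes with a lower signal in Triple than in both other arrays by over 2 technical SD, since the difference of Aim2 from CpG was smaller than that.

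**Figure D1:**
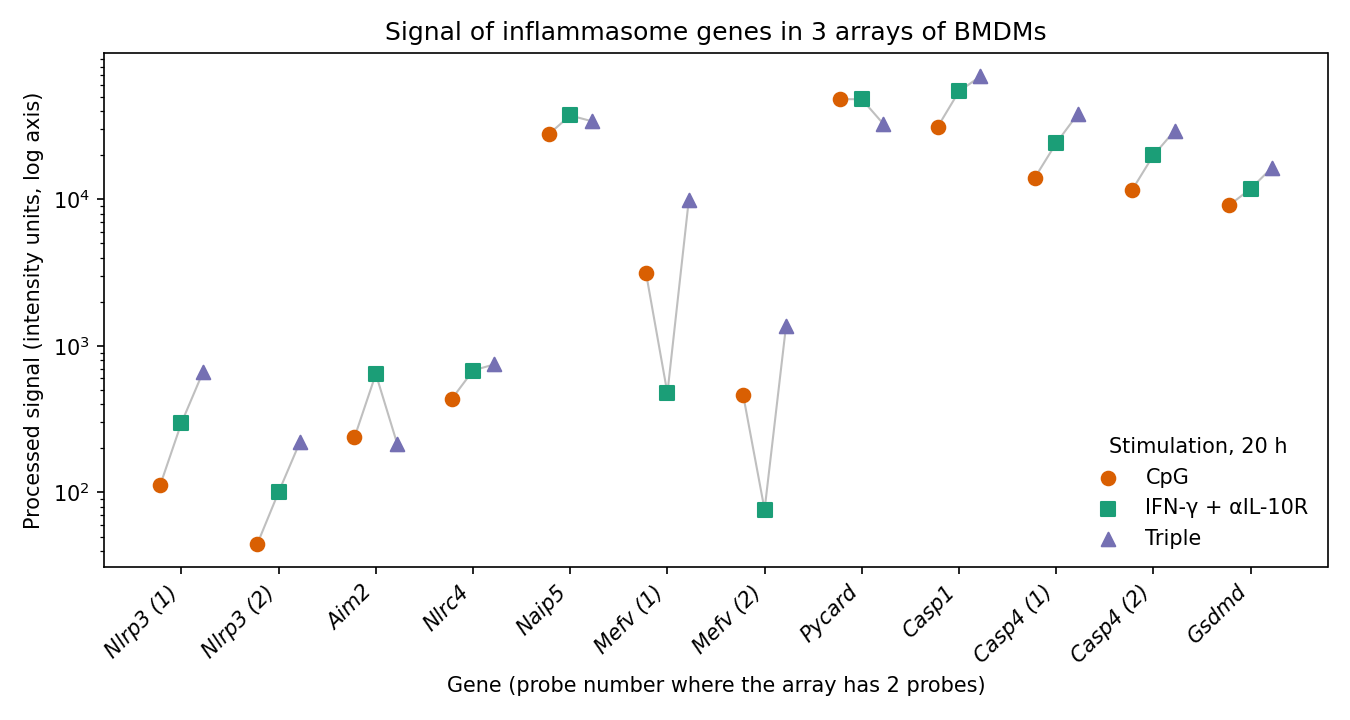
Processed signal (intensity units, log axis) of the 12 probes of the 9 inflammasome genes on the 3 arrays, with 1 point per array and lines joining the points of a probe; (1) is the probe used and (2) the other probe of a gene. Mefv is lowest in IFN-γ + αIL-10R (476) and highest in Triple (9854) while Nlrp3 is lowest in CpG (111), and the heights of different probes are not comparable.

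Casp1 and Casp4, the inflammatory caspases, had the same order of arrays. The Casp1 signal was 31128 on the CpG array, 54509 on the IFN-γ + αIL-10R array, and 69005 on the Triple array. The Casp4 signal was 14031, 24139, and 38006. For both genes CpG was lowest, IFN-γ + αIL-10R was between, and Triple was highest. Only the distance between the extremes passed 2-fold, as Triple was above CpG by 2.31-fold for Casp1 and by 2.82-fold for Casp4. Over IFN-γ + αIL-10R, the log2 fold of Triple was 0.38 for Casp1 and 0.69 for Casp4, and that of CpG was -0.83 and -0.80. With spike-in scaling the log2 fold of Triple over IFN-γ + αIL-10R was 0.24 for Casp1, under 2 technical SD. The overlapping second probe of Casp4 had signals of 11543, 19928, and 29438 and log2 folds of 0.60, -0.81, and 1.41 for Triple over IFN-γ + αIL-10R, CpG over IFN-γ + αIL-10R, and Triple over CpG.

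Gsdmd, whose product forms the pore, is the gene measured most precisely, since its probe (chr15:75697536-75697595) was spotted 10 times on each array. For CpG the spots had a lowest signal of 8686, a median of 9072, and a highest of 9656. For IFN-γ + αIL-10R these were 11428, 11752, and 12111. For Triple they were 15153, 16390, and 17115. The spots of the 3 arrays did not overlap, and their order was that of the caspases, which shows that the arrays differed by more than spot noise and says nothing about the spread between cultures. Over IFN-γ + αIL-10R, the log2 fold was 0.52 for Triple and -0.39 for CpG, and it was 0.91 for Triple over CpG, each inside 2-fold.

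**Figure D2:**
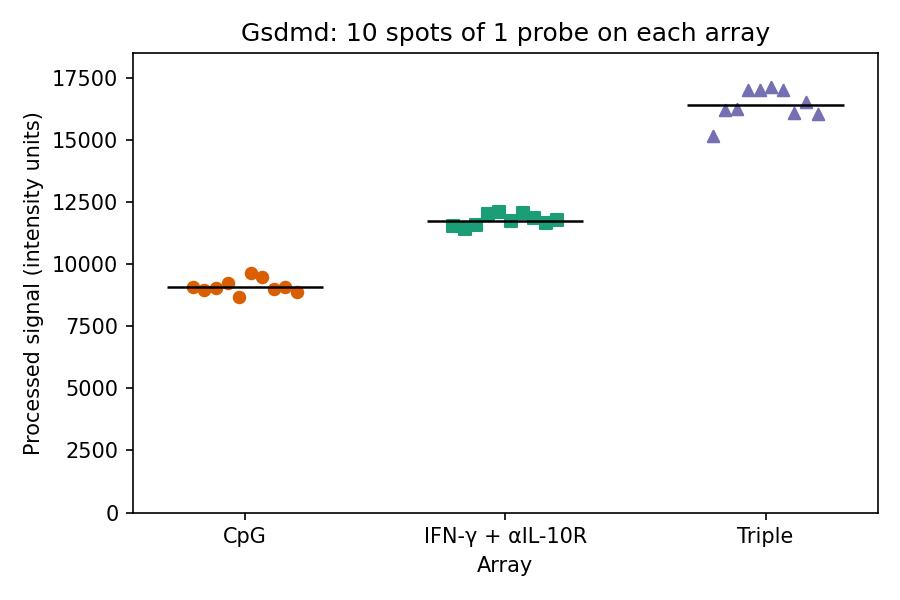
Processed signal (intensity units) of the 10 spots of the Gsdmd probe on each array, with a horizontal line at the median; spots are repeats on 1 array and not replicate cultures. The medians are 9072 on the CpG array, 11752 on the IFN-γ + αIL-10R array, and 16390 on the Triple array, and the spots of the arrays do not overlap.

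Set side by side, 5 of the 9 genes (Nlrp3, Nlrc4, Casp1, Casp4, and Gsdmd) had the order CpG, IFN-γ + αIL-10R, Triple from lowest to highest. The order of the upper 2 arrays was not resolved for Nlrc4, nor for Naip5, which had CpG lowest. For Casp1 that order was not resolved with spike-in scaling. Mefv had IFN-γ + αIL-10R lowest and Triple highest. Aim2 had IFN-γ + αIL-10R highest, and Pycard had Triple lowest with the other arrays level. The 9 genes thus did not move as 1 block.

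In Triple over IFN-γ + αIL-10R, the comparison that adds CpG, 2 of the 9 genes were more than 2-fold up (Mefv and Nlrp3), beside 3.56% of all gene names, and 1 was more than 2-fold down (Aim2), beside 5.82%. Among the 16513 gene names well above background on all arrays, as these 9 were, the shares were 5.14% up and 8.21% down. The median log2 fold of the 9 genes was 0.38, and that of those 16513 gene names was -0.04.

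When CpG was compared with IFN-γ + αIL-10R, 1 gene was more than 2-fold up (Mefv), beside 2.75% of all gene names, and 2 were more than 2-fold down (Nlrp3 and Aim2), beside 3.19%. Among gene names well above background on all arrays, 3.71% were up and 4.8% down. The log2 fold was positive for 1 of the 9 genes, and their median was -0.67 against 0.00188 for gene names well above background on all arrays.

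In Triple over CpG, the comparison that adds IFN-γ + αIL-10R, 4 genes were more than 2-fold up (Nlrp3, Mefv, Casp4, and Casp1), beside 4.12% of all gene names, and 0 were more than 2-fold down, beside 5.6%. Among gene names well above background on all arrays, 6.04% were up and 7.01% down. The log2 fold was positive for 7 of the 9 genes, with a median of 0.91 against -0.05. Mefv and Nlrp3 were past 2-fold in all 3 comparisons, and they differed in direction when CpG was set against IFN-γ + αIL-10R. The 3 comparisons share arrays and are not independent of each other.

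**Figure D3:**
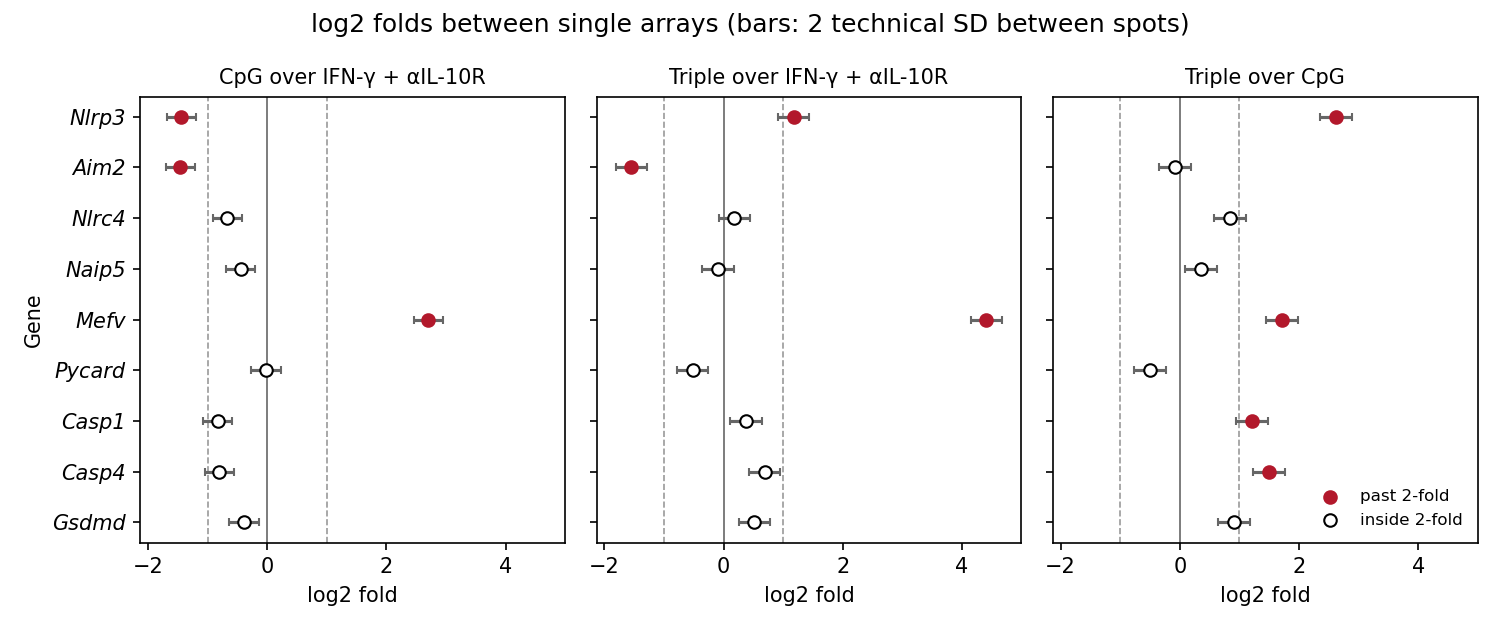
Log2 folds of the 9 inflammasome genes between single arrays in 3 comparisons, with bars of 2 technical SD between spots, a solid line at 0, and dashed lines at 2-fold. Filled points are past 2-fold, 4 of 9 in Triple over CpG and 3 of 9 in each of the other comparisons, and the bars hold no spread between cultures.

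The promoters of these genes were read for 4 motifs on both strands in a window from 250 bases before to 50 bases after the start, taken from RefSeq in GRCm38.p6. Windows were found for 8 of the 9 genes. The motifs were the GAS element TTCNNNGAA, known from genes that respond to IFN-γ, the core of the interferon-stimulated response element, which is GAAA, any 2 bases, and GAAA, the κB motif bound by NF-κB after TLR signals, and the PU.1 motif GAGGAAGT of the macrophage factor PU.1. The GAS element was in the windows of 0 of these 8 genes, against 9.55% of 27025 genes, and the response element core was in 0, against 3.99%. The κB motif was in the windows of 3 (Casp4, Nlrp3, and Naip5), against 9.55% of genes counted in the same way over all their windows, and the PU.1 motif was in those of 2 (Aim2 and Pycard), against 3.69%. A match is a description of letters and no evidence of binding, and a window without a match says nothing about sites elsewhere.

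The 250 bases before the start are shown for Casp4 and Nlrp3, which have a κB match, and for Mefv, which was the gene with the largest folds and has none of the 4 motifs. The capitals mark the κB matches. Nlrp3 has 2 windows in the table, and the one that begins at base 59542436 has no match to any of the motifs. In Casp4, 2 matches overlap by all but 1 base and another lies closer to the start.
Casp4 (chr9:5308599-5308848, plus strand): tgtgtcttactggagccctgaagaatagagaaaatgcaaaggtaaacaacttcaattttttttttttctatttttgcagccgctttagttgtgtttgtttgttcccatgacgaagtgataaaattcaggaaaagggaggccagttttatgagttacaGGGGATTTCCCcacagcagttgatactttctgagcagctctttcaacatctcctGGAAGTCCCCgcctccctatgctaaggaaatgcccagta
Nlrp3 (chr11:59541319-59541568, plus strand): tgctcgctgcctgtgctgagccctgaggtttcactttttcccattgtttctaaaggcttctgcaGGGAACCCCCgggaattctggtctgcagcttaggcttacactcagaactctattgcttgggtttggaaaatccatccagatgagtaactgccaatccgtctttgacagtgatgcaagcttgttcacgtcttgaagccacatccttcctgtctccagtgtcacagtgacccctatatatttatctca
Mefv (chr16:3718125-3718374, minus strand): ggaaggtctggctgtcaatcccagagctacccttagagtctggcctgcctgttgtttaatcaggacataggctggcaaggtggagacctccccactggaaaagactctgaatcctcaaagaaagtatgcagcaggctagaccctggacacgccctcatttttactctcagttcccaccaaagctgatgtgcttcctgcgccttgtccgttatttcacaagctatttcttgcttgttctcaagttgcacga

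Counted from the start that belongs to each window, the Casp4 matches began at bases -93, -92, and -39, and the Nlrp3 match began at base -186. Casp4 was lower in CpG than in IFN-γ + αIL-10R, at a log2 fold of -0.80, and so was Nlrp3 at -1.44, while Mefv was higher at 2.70. The motifs were not tested against the expression values.

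Other genes of the pathway were read from 4 lists with 62 names, of which 60 were on the array. Of these 60, 28 were past 2-fold in at least 1 comparison, which were 10 of 20 other sensors, 3 of 7 other caspases, 6 of 9 substrates and gasdermins, and 9 of 24 regulators. Of all gene names 14.6% were past 2-fold in at least 1 comparison. Of the 49 list genes well above background on all arrays 23 were, beside 20.3% of all gene names so detected. In Triple over CpG 18 of the 60 were up and 3 down, beside 4.12% and 5.6% of all gene names. In CpG over IFN-γ + αIL-10R 3 were up and 15 down, beside 2.75% and 3.19%, and in Triple over IFN-γ + αIL-10R 8 were up and 9 down, beside 3.56% and 5.82%. The median log2 folds of the 60 were 0.28, -0.42, and -0.01 in the same order, with dim signals raised to the lowest signal well above background. Over the 49 list genes well above background on all arrays they were 0.41, -0.55, and -2.7e-05. For all gene names so detected they were -0.05, 0.00188, and -0.04. These counts stand beside those of the 9 genes as descriptions and were not tested. The lists and the 9 genes were chosen with earlier results of these data known, which limits a comparison with the shares of all gene names.

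The 4 sensors on the list with the largest folds had the order of arrays of Nlrp3. Nod1, which detects bacterial cell wall peptides, had signals of 3131 on the CpG array, 13870 on the IFN-γ + αIL-10R array, and 29538 on the Triple array, a log2 fold of 3.30 for Triple over CpG. Nod2, its relative, had signals of 367, 1103, and 1823, and Nlrc5, the activator of MHC class I genes, had 2314, 9603, and 12163. Nlrp1a, a sensor that is activated by cleavage, had 20616, 37086, and 88591. All 4 were lowest in CpG and highest in Triple, with log2 folds of Triple over CpG from 2.16 to 3.30. Nlrp1b, the next in rank, did not have that order. Its signals were 495, 1902, and 443, with a log2 fold of -2.07 for Triple over IFN-γ + αIL-10R. Nlrp1c-ps and Ifi203 were also highest in IFN-γ + αIL-10R, while Mnda had the order of Nlrp3. Zbp1 was lowest in CpG, and its log2 fold of Triple over IFN-γ + αIL-10R, 0.10, was under 2 technical SD. The other NAIP genes Naip1, Naip2, and Naip6 were past 2-fold in no comparison, as was Naip5.

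Casp2 and Casp6, caspases outside the inflammasome, did not have the order of arrays of Casp1 and Casp4. Casp2 had signals of 7094 on the CpG array, 13677 on the IFN-γ + αIL-10R array, and 5707 on the Triple array, highest where Aim2 was highest. It was past 2-fold only in Triple over IFN-γ + αIL-10R, at a log2 fold of -1.22. Casp6 was inside 2-fold in all 3 comparisons, with signals of 1751, 2998, and 1891.

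Among substrates and pore proteins, Il1b had signals of 1445 for CpG and 30090 for Triple and was not well above background in IFN-γ + αIL-10R. With its dim signal there raised to the lowest signal well above background, Triple was 1157-fold higher, a value that depends on that limit. Il18 had signals of 861 on the CpG array, 2928 on the IFN-γ + αIL-10R array, and 2192 on the Triple array. Its 2 arrays with IFN-γ + αIL-10R were thus the higher ones, while Il1b was higher where CpG was present. Ninj1, whose product ruptures the membrane after pyroptosis, had signals of 41737, 37035, and 111578, with Triple above both other arrays, at a log2 fold of 1.63 over IFN-γ + αIL-10R and of 1.48 over CpG. Dfna5, the array's name for gasdermin E, was inside 2-fold with 4335, 3256, and 4869.

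Among regulators, Gbp2 and Gbp5, guanylate-binding proteins that help to expose bacterial products to caspase-11 and AIM2, had log2 folds of 6.40 and 6.69 for Triple over CpG and of 0.11 and 0.80 for Triple over IFN-γ + αIL-10R. Cflar, an inhibitor of caspase-8, had signals of 3023 on the CpG array, 1088 on the IFN-γ + αIL-10R array, and 10288 on the Triple array, and Birc3, a ubiquitin ligase that restrains cell death, had 1618, 530, and 3625. Both had the order of arrays of Mefv, at log2 folds of Triple over IFN-γ + αIL-10R of 3.28 and 2.81. Nek7, the kinase that binds NLRP3, had 8454, 8164, and 7920, so that it was level over the 3 arrays while Nlrp3 spanned 6.15-fold.

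**Figure D4:**
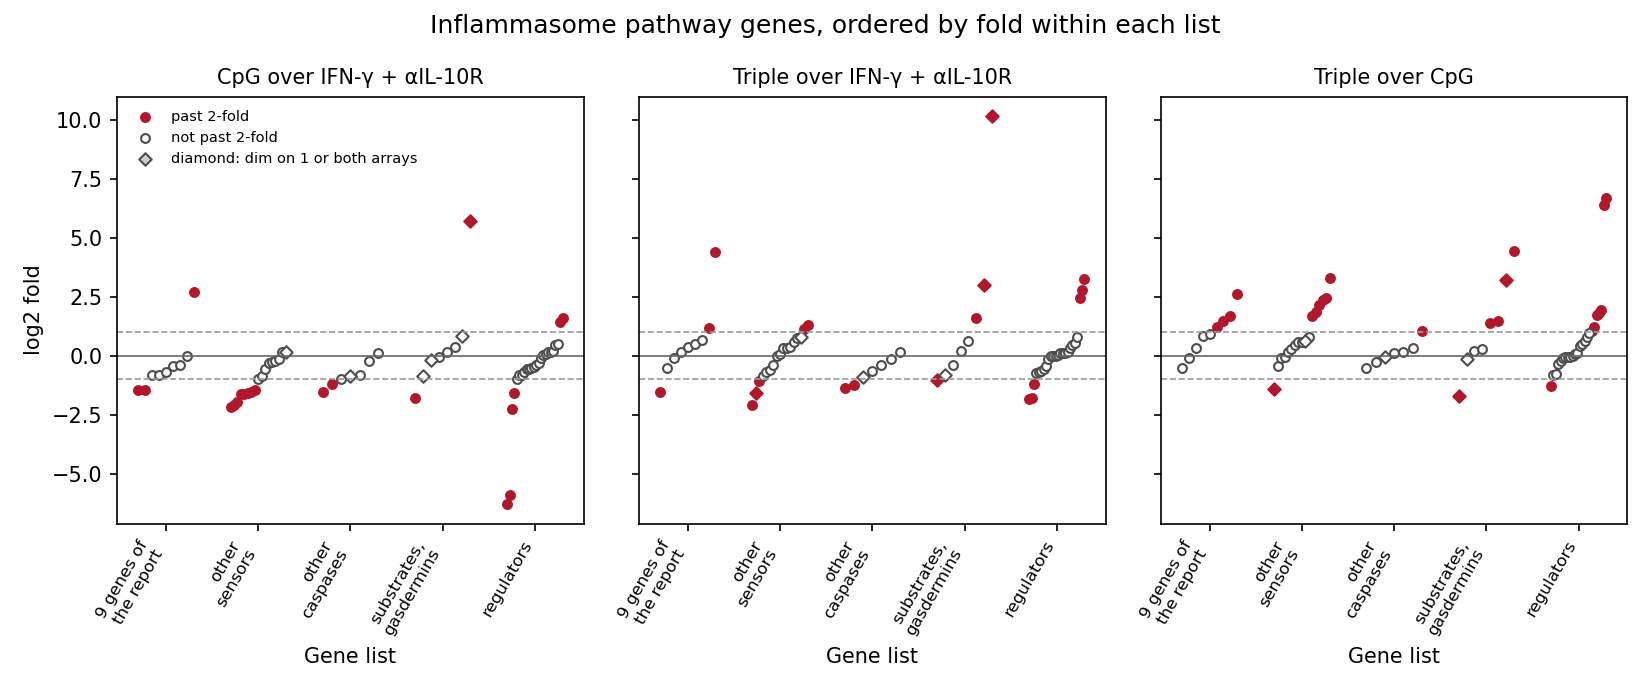
Log2 folds between single arrays of the 9 inflammasome genes and of the genes on 4 pathway lists that were well above background on at least 1 array, in 3 comparisons and ordered by fold within a list. Filled points are past 2-fold, diamonds mark genes not well above background on 1 or both arrays compared, and of the 60 list genes 15 are down in CpG over IFN-γ + αIL-10R while 18 are up in Triple over CpG.

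The genes with patterns closest to those of Mefv and Nlrp3, the 2 genes that spanned the widest range, were sought among 10904 other genes well above background on all arrays. Only names with a symbol in RefSeq that is not a clone, accession, or provisional name were admitted. Closeness was the larger of the absolute differences in the 2 log2 folds over IFN-γ + αIL-10R, and thus rests on 3 arrays. For Mefv these were Pdpn at 0.24, Dusp2 at 0.31, Vegfc at 0.33, Ltb at 0.37, and Ccl3 at 0.40. Pdpn encodes podoplanin, Dusp2 a phosphatase of MAP kinases, Vegfc a growth factor of lymph vessels, Ltb lymphotoxin β, and Ccl3 a chemokine. For Nlrp3 they were Nxpe3 at 0.13, Ggct at 0.16, Serping1 at 0.21, C1ra at 0.25, and Ccl12 at 0.28. Serping1 encodes the inhibitor of the complement protease that C1ra encodes, and Ccl12 is a chemokine. With 3 arrays many genes share an order, so that closeness here is a description.

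Markers of other cells were read because BMDM cultures can hold them. Of 6 neutrophil markers, 4 were well above background on the CpG array, 4 on the IFN-γ + αIL-10R array, and 3 on the Triple array, with summed signals of 3771, 9430, and 4734 and with Mpo and Ngp not well above background on any array. Of 5 T and NK cell markers, 2 were well above background, with sums of 3770, 5657, and 3227. Both sums were highest in IFN-γ + αIL-10R, as was the signal of Aim2, and each was carried there by 1 gene. Ly6g had 555, 7699, and 2658 of the neutrophil sums, while S100a8 had its lowest signal in IFN-γ + αIL-10R (297, 55.7, and 517) and Elane its highest with CpG (2839, 1615, and 1539). Nkg7 had 2892, 4768, and 2403 of the T and NK cell sums, and Cd3e was level at 858, 869, and 806. The part of such cells in the values of Aim2 was not tested. Of 4 B cell markers 1 was well above background, at sums from 75.8 to 96.2, and of 3 mast cell markers 0 were. Dendritic cell markers summed to 36114, 36036, and 29882 with 1, 2, and 2 of 3 well above background and Flt3 not among them. Siglech carried these sums at 36076, 35974, and 29736. Zbtb46 was highest in Triple, with signals of 25.1 (not well above background), 36.3, and 133. Fibroblast markers summed to 500, 316, and 423 with 2 of 3 well above background.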

How the data were processed

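RNA of BMDMs from 3 conditions was measured with 1 Agilent mouse array each, in 1 colour. For each array the authors deposited what Agilent Feature Extraction 10.10.1.1 wrote, and its processed signal, an intensity on the linear scale, had a fitted background subtracted and no scaling between arrays. They also deposited a table of log2 values, which differed from the log2 processed signal by 1 constant per array and was used as an alternative. Control spots and feature outliers (0.275%, 0.212%, and 0.244% of spots for CpG, IFN-γ + αIL-10R, and Triple) were left out, spots of a probe were averaged, and log2 signals were shifted by the 75th percentile of the 22383 probes that passed the background mark on all arrays, since 45.1% of the spots were detected on average, under the limit of 50%. Spots with only a local background mark were kept, because the background subtracted was the fitted surface at all 59305 spots.

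A gene was its brightest probe. It was up if more than 2-fold higher and well above background in the first array, and down if more than 2-fold lower and well above background in the second, with dim signals raised to the lowest signal well above background. With 1 array per condition no p-value is given, and the number of arrays limits the precision. The members and lists were chosen with earlier results of these data known. From each pathway list the 4 genes with the largest measured folds were named, with Il1b, Il18, and Nek7 (some genes that the rule names are not reported here), and for the 2 members with the widest range the 5 genes with the closest pattern. Naip1, Naip2, Naip6, Nlrp1b, Nlrp1c-ps, Ifi203, Mnda, and Zbp1 were named after their values were seen. Alternatives were background correction by normexp with an offset of 50 (limma 3.58.1 in R 4.3.3), other scalings (quantile, median, 5 of 10 spike-in probes, none, all probes), the log2 table, filters, probe averaging, outliers kept, and thresholds of 1.5-fold and 3-fold. Calculations used Python 3.11.15, numpy 2.4.6, and pandas 2.3.3, and the calls were tested on simulated data.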

Additional observations from a re-analysis of the deposited data

How the results depend on the processing

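Each of the 27 folds of the 9 genes was recomputed under up to 12 alternatives. Of the 10 past 2-fold, 9 stayed past it in every alternative that gave a value, the exception being Nlrp3 in Triple over IFN-γ + αIL-10R at 0.98 with normexp, and all 17 inside 2-fold stayed inside. The sign changed only for Naip5 in Triple over IFN-γ + αIL-10R (up to 0.02) and Pycard in CpG over IFN-γ + αIL-10R (up to 0.02), both near 0. Genes up in Triple over IFN-γ + αIL-10R were 1 with normexp and 1 at 3-fold, and in Triple over CpG 2 at 3-fold. Genes down in Triple over IFN-γ + αIL-10R were 0 at 3-fold and 0 without spots with a local background mark, where Aim2 has no value. Genes down in CpG over IFN-γ + αIL-10R were 5 at 1.5-fold, 0 at 3-fold, and 1 without such spots. With spike-in scaling the median log2 fold of the 9 genes was 0.24 for Triple over IFN-γ + αIL-10R. Their median in Triple over CpG was 1.06 without such spots and 1.06 without Naip5, the last 2 alternatives having been chosen after seeing the data. Pathway genes down in Triple over IFN-γ + αIL-10R were 5 with normexp, 17 at 1.5-fold, and 3 at 3-fold, in CpG over IFN-γ + αIL-10R 25 at 1.5-fold, and in Triple over CpG 1 with normexp, 1 with both arrays well above background, 5 at 1.5-fold, and 1 at 3-fold. The cause was not tested, other than fewer or more genes passing another threshold. For Triple over IFN-γ + αIL-10R, scaling moved the median of all detected genes by 0.11 (median), 0.11 (all probes), 0.10 (deposited log2 table), and -0.14 (spike-in). Counts of all gene names up and down in Triple over IFN-γ + αIL-10R, CpG over IFN-γ + αIL-10R, and Triple over CpG were 1238 and 2026, 956 and 1109, and 1435 and 1949, against 2625 and 3183, 2475 and 2559, and 2869 and 3129 with no filter, 2527 and 3522, 2135 and 2425, and 2721 and 3527 at 1.5-fold, and 645 and 991, 439 and 536, and 733 and 911 at 3-fold. With normexp they were 833 and 1172, 583 and 737, and 984 and 999, and with both arrays well above background 1184 were down in Triple over CpG. No paired analysis was possible because there was 1 array per condition.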
